A study of Rattus norvegicus with 24 samples.

Results

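The Notch receptors Notch1, Notch2 and Notch3, the ligands Dll1, Dll3 and Jag1, and the target genes Hes1, Hes5, Hey1 and Hey2 were followed through the differentiation of rat neural stem cells with and without vitamin C. These 10 genes were matched by symbol, and all 10 were found among the 12187 genes of the deposited expression table and passed the filter on low values. The RNA came from Sprague-Dawley rat cells in 3 groups of 2 RNA-seq libraries each: differentiated neural stem cells given vitamin C (VC+), cells differentiated in its absence (VC-), and the neural stem cells labelled D0. Replicate 1 of both differentiated groups carries a day 4 label and replicate 2 a day 5 label. Brain region, animal age, culture conditions and whether replicates are separate cultures or animals are not given in the sources used here, so p-values measure only the spread between these libraries, which may be technical.

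Notch receptors are cut when a ligand on a neighbouring cell binds them. The freed intracellular part enters the nucleus, joins the DNA-binding protein RBPJ and switches on Hes and Hey genes, whose products are repressors that hold back proneural factors. In neural stem cells this pathway is known for keeping cells undifferentiated, and in glial lineages it bears on the choice between astrocytes and oligodendrocytes.

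Expression is given in CPM, reads scaled by the authors to each library's total. CPM is not divided by gene length, so levels are compared between libraries and never between genes. Depth followed the replicate number: the table held 4811090 to 6641720 reads in replicate 1 libraries and 10299300 to 13184600 in replicate 2. Differences are in log2(CPM + 0.5), with standard errors (SE) from a limma fit of the 3 groups. The labels were checked against markers. Nes, an intermediate filament of neural progenitors, stood at 35.3 and 32.5 CPM in VC+, 81.6 and 53.5 CPM in VC-, and 159 and 116 CPM in D0 (replicate 1 before replicate 2, as in all pairs of values given here). Gfap, the astrocyte filament, had 684 and 2072 CPM in VC+, 101 and 224 CPM in VC-, and 1.77 and 57.9 CPM in D0. Other markers on the lists of Nes and Gfap were mixed. Of 8 stem cell markers, Nes and Slc1a3 lay wholly below D0 in both differentiated groups, and Prom1 in VC+ only. Sox2, Pax6, Vim, Msi1 and Fabp7 overlapped D0 in both. Of 8 astrocyte markers, Gfap and Agt lay wholly above D0 in both, and Aqp4 and S100b in VC+ only. Aldh1l1, Slc1a2, Gjb6 and Aldoc overlapped D0 in both, and the means of Slc1a2 and Aldoc were below those of D0. The 8 neuron markers summed to 436 and 391 CPM in VC+, 490 and 402 CPM in VC-, and 393 and 433 CPM in D0 with members going opposite ways: Elavl3 and Rbfox3 lay above D0 in all 4 differentiated libraries and Map2 lay below it. In bulk RNA, fewer cells of a type and less RNA per cell cannot be told apart.

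Notch2 was lower in differentiated cells than in stem cells, and of the 3 receptors its libraries lay closest together within VC+, VC- and D0. It had 173 and 164 CPM in VC+, 153 and 211 CPM in VC-, and 436 and 411 CPM in D0. The means were 169 ± 5.81 CPM in VC+, 182 ± 40.8 CPM in VC- and 423 ± 17.7 CPM in D0 (SD, n = 2 each). All 4 differentiated libraries lay below both stem cell libraries. The log2 difference was -1.33 (SE 0.25) for VC+ against D0 and -1.23 (SE 0.25) for VC- against D0. Both comparisons share the D0 libraries, so they are not independent of each other. Notch2 did not pass the limma test over all 11823 genes tested (adjusted p 0.974 and 1.00). DESeq2 on reads recovered from the CPM values called it lower in both, with adjusted p 0.000656 for VC+ against D0 and 0.00726 for VC- against D0. By that rule 0.640% of genes were lower in VC+ than in D0 and 0.392% were lower in VC- than in D0.

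Notch1, a main receptor of neural stem cells, was also below both stem cell libraries in all 4 differentiated libraries, but unevenly. It had 597 and 242 CPM in VC+, 525 and 258 CPM in VC-, and 716 and 664 CPM in D0. The stem cell libraries were close to each other, while replicate 2 of VC+ and VC- (day 5) stood far below replicate 1 (day 4). Against D0, the log2 difference was -0.86 (SE 0.58) in VC+ and -0.90 (SE 0.58) in VC- (limma adjusted p 1.00 in both).

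Notch3, a receptor of progenitors that is also prominent in pericytes and vascular smooth muscle, differed by replicate. It had 341 and 80.3 CPM in VC+, 221 and 88.8 CPM in VC-, and 269 and 456 CPM in D0. VC+ overlapped D0, and VC- lay wholly below it. In replicate 2 the CPM ratio to D0 was 0.176 (exact 95% counting interval 0.167 to 0.186) for VC+ and 0.195 (0.185 to 0.206) for VC-. In replicate 1 the same ratios were 1.27 (1.20 to 1.34) for VC+ and 0.819 (0.769 to 0.871) for VC-. Such intervals compare 2 libraries and cover counting error only. Of the 8 listed markers of pericytes and smooth muscle, 7 were present. They summed to 114 and 432 CPM in VC+, 76.6 and 297 CPM in VC-, and 58.3 and 296 CPM in D0. The sum was higher in replicate 2 of every group. So were 6 of the 7 markers in VC+, 6 in VC- and 5 in D0, while Des was lower in replicate 2 of every group. The part of these cell types in the Notch3 values was not tested.

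**Figure D1:**
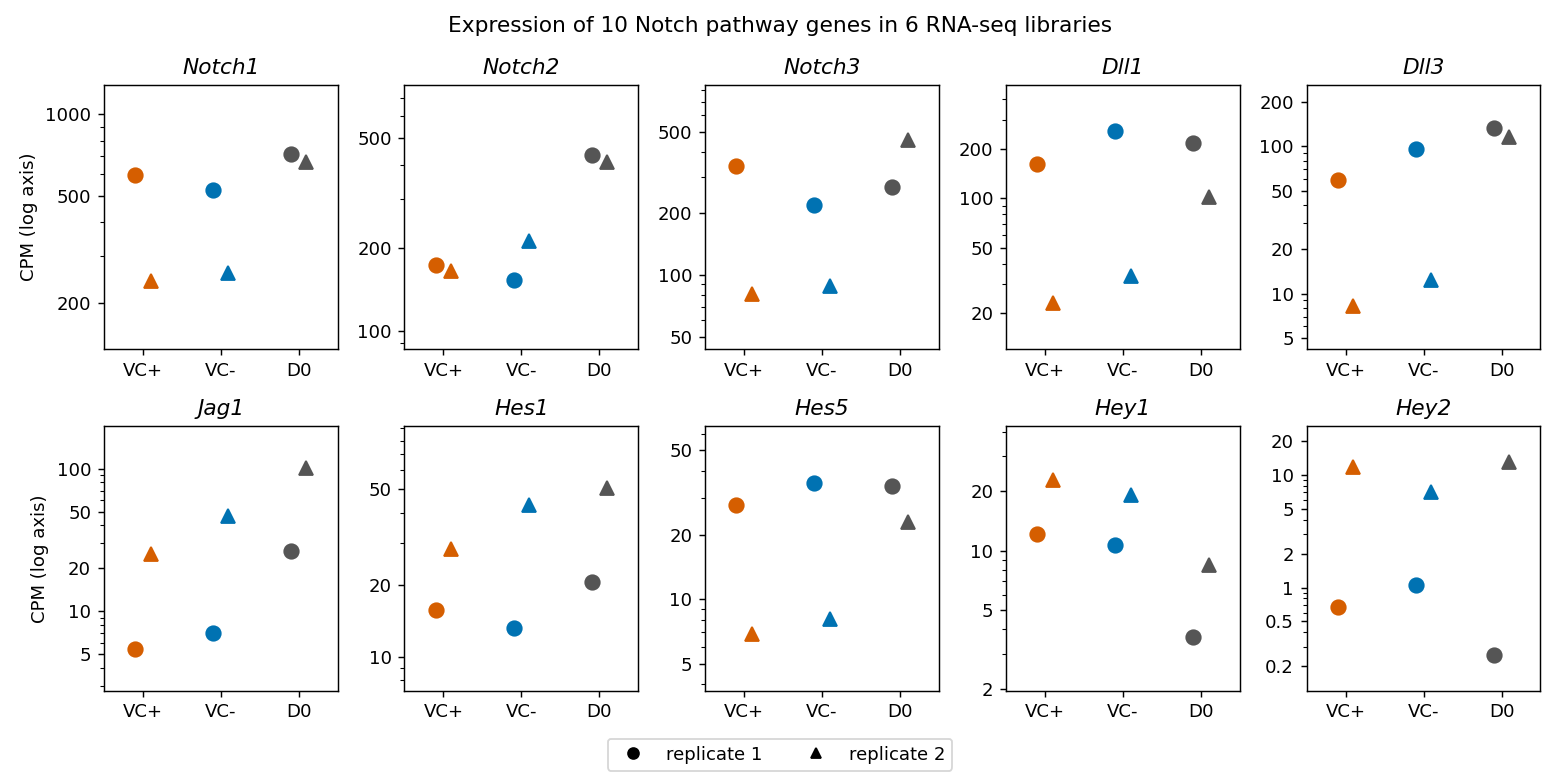
CPM on log axes for each of the 10 genes in the VC+, VC- and D0 libraries, with circles for replicate 1 and triangles for replicate 2. Notch2 sits at 153 to 211 CPM in the differentiated libraries and at 411 and 436 CPM in D0, Hey1 is lowest in D0, and Dll1, Dll3 and Hes5 are low in the differentiated libraries of replicate 2.

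Among the ligands, Dll3 was below both stem cell libraries in all 4 differentiated libraries. Dll3 is a divergent Delta ligand that does not activate receptors on neighbouring cells. It had 59.3 and 8.19 CPM in VC+, 95.6 and 12.4 CPM in VC-, and 133 and 115 CPM in D0. The stem cell libraries were close, and the gap to them was far wider in replicate 2. The CPM ratio to D0 was 0.445 and 0.0710 for VC+, and 0.718 and 0.108 for VC-. The log2 difference was -2.45 (SE 1.28) for VC+ against D0 and -1.82 (SE 1.28) for VC- against D0, with limma adjusted p 1.00 in both. DESeq2 with a replicate term called Dll3 lower in VC+ (adjusted p 0.00158) and in VC- (0.0483) than in D0.

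Dll1, a Delta ligand that activates Notch on adjacent progenitors, had 161 and 23.0 CPM in VC+, 256 and 33.7 CPM in VC-, and 217 and 101 CPM in D0. Both differentiated groups overlapped D0, since replicate 1 of each stood above replicate 2 of D0. Against D0, the log2 difference was -1.28 (SE 1.32) in VC+ and -0.67 (SE 1.32) in VC-. Each turned positive when the day 5 library of the differentiated group was left out, at 0.11 for VC+ and 0.78 for VC-. Those fits set replicate 1 of that group against both D0 libraries. The CPM ratio to the same-numbered D0 library was 0.739 and 0.227 for VC+, and 1.18 and 0.332 for VC-.

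Jag1, the Serrate-type ligand, was lower than in the same-numbered stem cell library in all 4 differentiated libraries. It had 5.45 and 25.3 CPM in VC+, 7.09 and 46.3 CPM in VC-, and 26.5 and 101 CPM in D0. VC- overlapped D0, while VC+ lay below D0 by a narrow margin, because replicate 2 was the higher one in every group. The CPM ratio of VC+ to D0 was 0.206 (exact 95% counting interval 0.151 to 0.277) in replicate 1 and 0.251 (0.227 to 0.277) in replicate 2. For VC- it was 0.268 (0.198 to 0.358) and 0.458 (0.421 to 0.498). On the log2 scale VC+ differed from D0 by -2.08 (SE 1.24) and VC- by -1.47 (SE 1.24) (limma adjusted p 1.00 in both). DESeq2 with a replicate term called Jag1 lower in VC+ (adjusted p 8.21e-07) and in VC- (0.00338) than in D0.

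The Hes and Hey genes are the pathway's readout, and their promoters are shown for the sequence that RBPJ recognises. RefSeq promoter windows of 300 bases (GRCr8 build, 250 before and 50 after the start site) were found for 9 of the 10 genes, all but Hey1. The motif GTGGGAA, or TTCCCAC on the opposite strand, occurred in 4 of the 9 windows, those of Hes1, Hes5, Hey2 and Dll1. It occurred in 6.29% of all 33469 rat promoter windows of that length and in 6.36% of those of genes tested here. The 4 windows are printed 5′ to 3′ on the gene's strand, with matches in capitals. They lie at chr11:84212996-84213295 (minus strand) for Hes1, chr5:170804327-170804626 (plus) for Hes5, chr1:28640850-28641149 (plus) for Hey2 and chr1:64993225-64993524 (minus) for Dll1.
Hes1: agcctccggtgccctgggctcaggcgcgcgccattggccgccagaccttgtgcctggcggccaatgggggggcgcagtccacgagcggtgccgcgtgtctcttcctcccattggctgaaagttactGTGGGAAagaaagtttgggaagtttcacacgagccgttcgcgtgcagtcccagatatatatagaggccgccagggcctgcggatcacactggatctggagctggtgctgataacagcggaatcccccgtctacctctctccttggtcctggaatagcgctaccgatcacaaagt
Hes5: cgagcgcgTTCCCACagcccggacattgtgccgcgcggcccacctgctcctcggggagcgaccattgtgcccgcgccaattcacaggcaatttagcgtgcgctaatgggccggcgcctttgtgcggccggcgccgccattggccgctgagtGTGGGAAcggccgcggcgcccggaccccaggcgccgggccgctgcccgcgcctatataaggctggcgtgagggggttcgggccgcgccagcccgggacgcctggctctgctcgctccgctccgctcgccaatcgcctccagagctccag
Hey2: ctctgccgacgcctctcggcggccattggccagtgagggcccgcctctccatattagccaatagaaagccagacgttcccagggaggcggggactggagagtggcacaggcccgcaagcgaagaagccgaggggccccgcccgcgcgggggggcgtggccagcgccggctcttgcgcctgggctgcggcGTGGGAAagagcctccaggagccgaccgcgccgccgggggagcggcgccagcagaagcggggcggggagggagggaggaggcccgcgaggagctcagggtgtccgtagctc
Dll1: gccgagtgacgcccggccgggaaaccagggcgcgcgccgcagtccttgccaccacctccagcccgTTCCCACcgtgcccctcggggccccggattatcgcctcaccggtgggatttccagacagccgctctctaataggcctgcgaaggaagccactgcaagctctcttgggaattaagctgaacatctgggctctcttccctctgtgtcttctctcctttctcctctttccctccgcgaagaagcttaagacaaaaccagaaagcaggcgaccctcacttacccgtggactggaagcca

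Counted from the start site, the first base of the match stood at -124 in Hes1, at -242 and -99 in Hes5, at -61 in Hey2 and at -185 in Dll1. The N box CACNAG, searched on both strands, which Hes repressors bind, was matched 4 times in the Hes1 window, at -204, -171, -97 and -24. It was present in 3 of the 9 windows, those of Hes1, Notch1 and Notch3, and in 43.1% of all windows. No N box match shares bases with the GTGGGAA match of the Hes1 window. A match describes the letters only, and no binding was measured here.

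The 4 genes with a GTGGGAA match did not all move together across the libraries. By Pearson correlation of log2(CPM + 0.5), Dll1 and Hes5 stood at 0.99 and Hes1 and Hey2 at 0.82. The pairs across these ran from -0.80 to -0.57. Hes5, a Notch effector of neural progenitors whose window held 2 matches, had 27.7 and 6.88 CPM in VC+, 35.2 and 8.11 CPM in VC-, and 33.9 and 23.2 CPM in D0. Replicate 2 of VC+ and VC-, which carries the day 5 label, had the lowest Hes5 values. Day label and replicate cannot be told apart, and Hes5 was lower in replicate 2 of D0 as well. In replicate 1 its CPM ratio to D0 was 0.815 (exact 95% counting interval 0.688 to 0.966) for VC+ and 1.04 (0.878 to 1.23) for VC-. In replicate 2 it was 0.297 (0.243 to 0.361) for VC+ and 0.3498 (0.287 to 0.424) for VC-. Against D0, the log2 difference was -0.99 (SE 0.93) in VC+ and -0.70 (SE 0.93) in VC-, and for VC- it was 0.32 without replicate 2 of VC-.

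Hes1, a repressor that also represses its own promoter, had 15.7 and 28.2 CPM in VC+, 13.1 and 42.9 CPM in VC-, and 20.6 and 50.5 CPM in D0. Each differentiated library was below the stem cell library of its number, and the groups overlapped. On the log2 scale VC+ differed from D0 by -0.60 (SE 0.74) and VC- by -0.43 (SE 0.74). Without replicate 1 of VC- the value for VC- was 0.41. Without replicate 2 of D0 it was 0.034 for VC+ and 0.21 for VC-.

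Hey1 was the 1 member that was higher than both stem cell libraries in all 4 differentiated libraries. This hairy-related repressor had 12.2 and 22.8 CPM in VC+, 10.7 and 19.2 CPM in VC-, and 3.66 and 8.48 CPM in D0. The CPM ratio to D0 was 3.32 (exact 95% counting interval 2.21 to 5.16) and 2.70 (2.22 to 3.30) for VC+, and 2.92 (1.91 to 4.61) and 2.26 (1.85 to 2.79) for VC-. It was of like size in both replicates and both differentiated groups. The log2 difference was 1.49 (SE 0.59) for VC+ against D0 and 1.28 (SE 0.59) for VC- against D0 (limma adjusted p 1.00 in both). DESeq2 with a replicate term called Hey1 higher in VC+ (adjusted p 0.00400) and in VC- (0.0316) than in D0.

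Hey2, its close relative, rested on few reads in replicate 1, with 7 in VC+, 9 in VC- and 2 in D0. It stood at 0.670 and 11.7 CPM in VC+, 1.05 and 7.04 CPM in VC-, and 0.252 and 13.0 CPM in D0. The counting interval of the replicate 1 ratio to D0 ran from 0.506 to 26.2 for VC+ and from 0.859 to 39.5 for VC-, so no difference was detectable there at this depth. In replicate 2 the ratio was 0.896 (0.741 to 1.09) for VC+ and 0.541 (0.431 to 0.678) for VC-. The log2 difference, 0.24 (SE 1.89) for VC+ against D0 and 0.099 (SE 1.89) for VC- against D0, was negative in both with edgeR and with DESeq2, and positive in both with DESeq2 and a replicate term (0.21 for VC+, 0.14 for VC-).

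**Figure D2:**
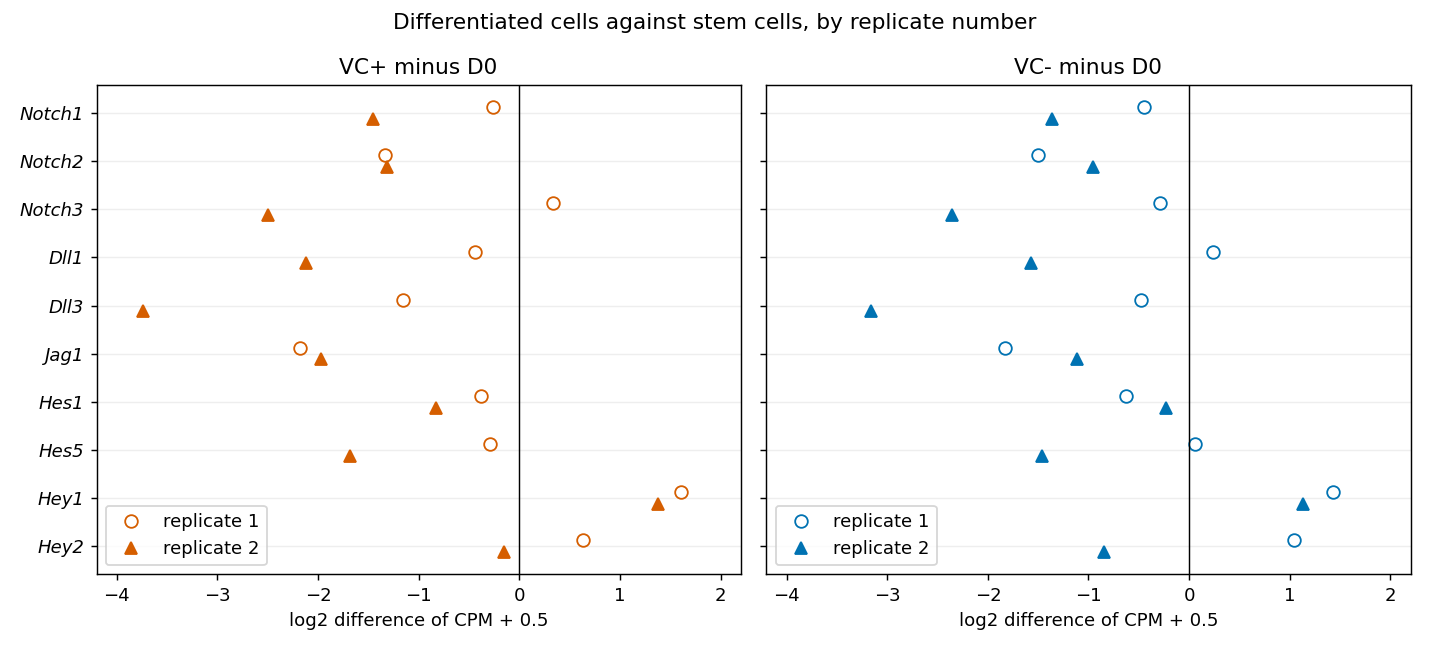
Log2 difference of CPM + 0.5 between differentiated and stem cell libraries of the same number, with VC+ minus D0 on the left and VC- minus D0 on the right, circles for replicate 1 and triangles for replicate 2. Notch1, Notch2, Dll3, Jag1 and Hes1 lie left of 0 and Hey1 right of 0 in both replicates and panels. Notch3 is at 0.34 and -2.50 in VC+.

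Counted over the 10 genes, 7 stood lower and 1 stood higher in VC+ than in D0 in both replicates, where all genes gave 29.0% and 28.6%. For VC- against D0 it was 6 lower and 1 higher, where all genes gave 29.5% and 28.6%. The members' median log2 difference was -1.03 for VC+ against D0 (-0.33 in replicate 1, -1.57 in replicate 2) and -0.80 for VC- against D0 (-0.37 and -1.24). The median of all genes was 0.01 in both, to 2 decimals. In VC+ the 2 libraries lay wholly below D0 for 4 members (Notch1, Notch2, Dll3, Jag1) and above it for 1 (Hey1), beside 13.2% and 14.2% of all genes. In VC- they lay below D0 for 4 (Notch1, Notch2, Notch3, Dll3) and above it for 1 (Hey1), beside 13.2% and 13.8%. All 4 differentiated libraries lay below both D0 libraries for 3 members, beside 7.94% of all genes, and above both for 1, beside 8.56%.

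Limma called 0 of 10 members and 0.00% of all genes against D0 in either group, and 1 member, Notch2, had an unadjusted p under 0.05 in each. Over all genes that number was 507 for VC+ and 382 for VC-. EdgeR called 0 genes in both. DESeq2 called 133 genes for VC+ against D0 (0.451% higher) and 63 for VC- against D0 (0.157% higher), with 1 member, Notch2, in each. With a replicate term, DESeq2 called 4 members in each comparison, Notch2, Dll3 and Jag1 lower and Hey1 higher. Of all genes it called 6.43% for VC+ (3.53% higher, 2.90% lower) and 3.88% for VC- (1.60% higher, 2.29% lower). None of these 4 members passed with that term in limma or edgeR.

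Between cells differentiated with and without vitamin C, no member passed the test. Groups overlapped for all 10 members, where 8.15% of all genes had VC+ wholly above VC- and 7.82% wholly below. Dll1, Dll3, Jag1 and Hes5 stood lower in VC+ in both replicates, and Hey1 stood higher in both. Over all genes, 26.4% were lower and 30.0% higher in both. The median log2 difference was -0.13 for the members and 0.018 for all genes. Limma called 0 of 10 members and 0.00% of all genes, with 62 genes at an unadjusted p under 0.05, none of them a member. EdgeR also called 0 genes, with 65 unadjusted. DESeq2 called 6 genes (0.0492%, made up of 0.0246% higher and 0.0246% lower). With replicates paired it called 32 (0.263%, made up of 0.189% higher and 0.0738% lower), and in both fits 0 members.

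The Delta ligands had vitamin C ratios of like size in both replicates. Dll1 had a CPM ratio of VC+ to VC- of 0.628 (exact 95% counting interval 0.589 to 0.670) in replicate 1 and 0.682 (0.605 to 0.769) in replicate 2. For Dll3 the ratio was 0.621 (0.558 to 0.690) and 0.660 (0.539 to 0.807). Jag1 stood at 0.769 (0.526 to 1.12) and 0.548 (0.491 to 0.610). The ratios of all 3 ligands were thus below 1 within each replicate number, but the replicate 1 counting interval of Jag1 took in 1. The limma 95% interval of each difference also spanned 0. It ran from -3.98 to 2.77 for Dll1, from -3.89 to 2.64 for Dll3 and from -3.77 to 2.56 for Jag1 on the log2 scale, and it takes in the gap between replicates.

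The receptors, Hes1 and Hey2 went opposite ways in the replicates, but the replicate 1 counting intervals of Hes1 and Hey2 took in 1. Notch1 had a VC+ to VC- ratio of 1.14 (1.09 to 1.18) in replicate 1 and 0.938 (0.902 to 0.976) in replicate 2. For Notch2 it was 1.13 (1.05 to 1.21) and 0.780 (0.745 to 0.816), and for Notch3 1.55 (1.46 to 1.63) and 0.905 (0.846 to 0.969). Hes1 stood at 1.19 (0.934 to 1.53) and 0.657 (0.590 to 0.731). Of the other targets, Hes5 was at 0.785 (0.666 to 0.925) and 0.848 (0.671 to 1.07), Hey1 at 1.14 (0.862 to 1.502) and 1.19 (1.04 to 1.37), and Hey2 at 0.640 (0.203 to 1.93) and 1.66 (1.34 to 2.06). The narrowest limma interval among the members, that of Notch2, ran from -0.74 to 0.55 on the log2 scale, and the widest, that of Hey2, from -4.68 to 4.97. In the limma fit with replicates paired, the interval of Notch2 was again the narrowest, from -0.65 to 0.46, and that of Dll3 was the widest, from -2.45 to 1.19. Paired intervals ran from -1.84 to 0.63 for Dll1, from -1.24 to 0.032 for Jag1 and from -1.24 to 1.52 for Hey2, so each still spanned 0.

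**Figure D3:**
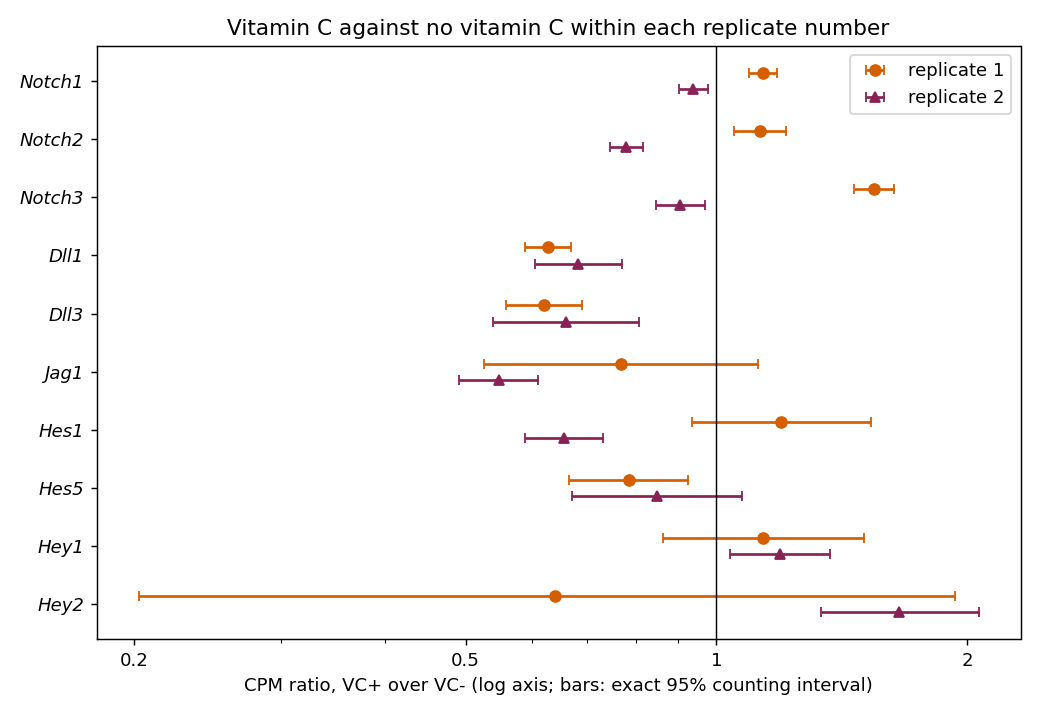
CPM ratio of VC+ to VC- for each gene on a log axis, circles for replicate 1 and triangles for replicate 2, with exact 95% intervals that cover read counting only. Dll1 and Dll3 lie between 0.621 and 0.682 in both replicates. Notch1, Notch2, Notch3, Hes1 and Hey2 lie on opposite sides of 1, with replicate 1 intervals of Hes1 and Hey2 that take in 1.

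The replicates split the members into genes lower and genes higher in replicate 2. In a limma fit with a replicate term over all 6 libraries, a comparison added after the data were seen, 6 of 10 members were called. Of all genes tested, 17.4% were called higher and 7.70% lower in replicate 2. On the log2 scale Dll1 fell in replicate 2 (-2.26, limma adjusted p 0.0194), as did Hes5 (-1.51, limma adjusted p 0.0385). Jag1 (2.22, limma adjusted p 0.00480), Hes1 (1.26, 0.0180), Hey1 (0.94, 0.0313) and Hey2 (3.28, 0.0105) rose. Notch1 (-0.81), Dll3 (-1.96), Notch3 (-0.88) and Notch2 (0.10) did not pass. The calls depend on single libraries. Leaving 1 library out, which leaves 1 library in its group, changed the number called over all genes as well as over the members. Replicate 1 and replicate 2 differ in day label in VC+ and VC- and in depth in every group, and these cannot be told apart from the replicate.

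Markers of several cell types moved with the same split. The 8 oligodendrocyte lineage markers summed to 8320 and 575 CPM in VC+, 11854 and 728 CPM in VC-, and 2082 and 550 CPM in D0, and all 8 were lower in replicate 2 of every group. Notch1, Dll1, Dll3 and Hes5 had that order of replicates too. Fibroblast and meninges markers, 7 of 8 listed, summed to 591 and 4309 CPM in VC+, 771 and 6492 CPM in VC-, and 151 and 9012 CPM in D0. Of the 7, Pdgfra, which oligodendrocyte precursors also express, made up most of the replicate 1 sums of VC+ and VC-, with 498 and 257 CPM in VC+, 539 and 381 CPM in VC-, and 53.2 and 193 CPM in D0. The other 6 were all higher in replicate 2 of every group. The 8 microglia and macrophage markers summed to 4.50 and 470 CPM in VC+, 4.30 and 648 CPM in VC-, and 4.41 and 233 CPM in D0, with C1qa at 0 in replicate 1 of VC+ and of D0 and Cx3cr1 at 0 in replicate 1 of VC+ and of VC-. Endothelial markers, 7 of 8 listed, summed to 3.54 and 33.8 CPM in VC+, 4.42 and 23.6 CPM in VC-, and 5.67 and 21.8 CPM in D0, with Cdh5 and Emcn at 0 in replicate 1 of every group. Jag1, Hes1, Hey1 and Hey2 were higher in replicate 2 of every group, as the sums of these last 3 lists were. The part of these cell types in the members' values was not tested.

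**Figure D4:**
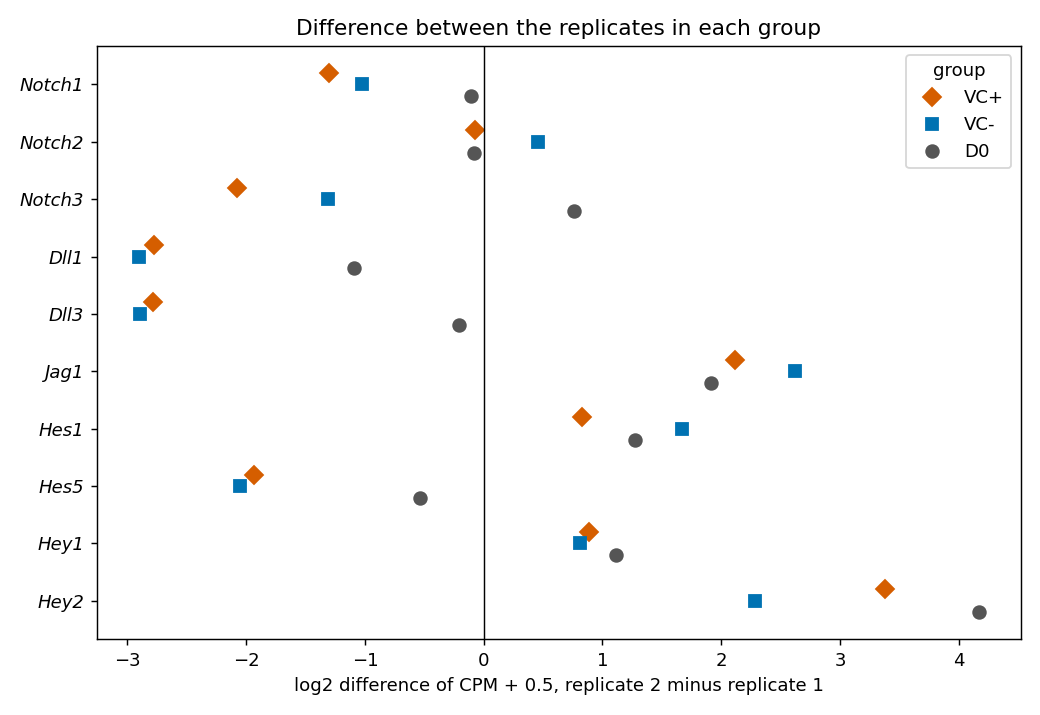
Log2 difference of CPM + 0.5, replicate 2 minus replicate 1, for each gene within VC+, VC- and D0. Notch1, Dll1, Dll3 and Hes5 lie left of 0 and Jag1, Hes1, Hey1 and Hey2 right of 0 in all 3 groups, while Notch3 is at -2.08 in VC+, -1.31 in VC- and 0.76 in D0.

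The wider pathway was read from 62 further genes, of which 50 were in the table and 49 were tested. Limma called 0 of them in each comparison. DESeq2 called 1, lower in VC+ than in D0, beside 0.640% of all genes. DESeq2 with a replicate term called 7 lower and 1 higher for VC+ against D0 and 2 lower for VC- against D0, and 0 for VC+ against VC-. Of all genes that fit called 2.90% lower and 3.53% higher for VC+ against D0. It called 2.29% lower for VC- against D0, and 0.263% in either direction for VC+ against VC-. The median log2 difference of the 49 pathway genes was -0.23 for VC+ against D0 and -0.14 for VC- against D0, beside 0.01 for all genes. For VC+ against VC- it was -0.094, with 24 genes lower and 10 higher in both replicates, where all genes gave 26.4% and 30.0%. In both replicates 18 were lower and 9 higher in VC+ than in D0, where all genes gave 29.0% and 28.6%, and 20 were lower and 12 higher in VC- than in D0, where all genes gave 29.5% and 28.6%.

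Nrarp, a direct Notch target that feeds back to limit the signal, had a larger log2 difference from stem cells than Hes1 or Hes5. It had 10.6 and 3.14 CPM in VC+, 12.9 and 3.92 CPM in VC-, and 34.2 and 31.6 CPM in D0. All 4 differentiated libraries were below both stem cell libraries, and the D0 pair was close. The log2 difference was -2.39 (SE 0.77) for VC+ against D0 and -2.12 (SE 0.77) for VC- against D0, with limma adjusted p 1.00 in both. DESeq2 with a replicate term called it lower in both (adjusted p 0.000198 and 0.00264). Its promoter window held 0 matches to GTGGGAA. Fabp7, a radial glia gene and Notch target, had 2016 and 536 CPM in VC+, 2152 and 468 CPM in VC-, and 1961 and 768 CPM in D0, and so differed more by replicate than by group. Sox9, a glial transcription factor, was at 99.5 and 103 CPM in VC+, 129 and 76.7 CPM in VC-, and 78.4 and 70.7 CPM in D0.

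Rbpj, the DNA-binding partner of the Notch receptors, stayed within a narrow range. It had 90.8 and 78.7 CPM in VC+, 82.4 and 86.9 CPM in VC-, and 78.1 and 76.1 CPM in D0. Against D0, the log2 difference was 0.13 (SE 0.19) in VC+ and 0.13 (SE 0.19) in VC-. Tle3, a Groucho-family corepressor, had 87.5 and 110 CPM in VC+, 133 and 123 CPM in VC-, and 84.9 and 111 CPM in D0. Bhlhe22, a neural bHLH factor, was at 0.287 and 8.05 CPM in VC+, 0.581 and 13.4 CPM in VC-, and 0.757 and 8.02 CPM in D0.

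Among genes that modify and cut the receptors, Lfng, the Fringe glycosyltransferase that tunes ligand choice, had 47.0 and 111 CPM in VC+, 67.9 and 96.8 CPM in VC-, and 140 and 271 CPM in D0. Its log2 difference was -1.42 (SE 0.55) for VC+ against D0 and -1.26 (SE 0.55) for VC- against D0. Adam10, the protease of the first ligand-induced cut, had 92.1 and 69.1 CPM in VC+, 95.5 and 70.1 CPM in VC-, and 146 and 184 CPM in D0. Both genes lay below D0 in all 4 differentiated libraries. Ncstn, the gamma-secretase subunit nicastrin, also lay below D0 in all 4. It was at 149 and 148 CPM in VC+, 141 and 167 CPM in VC-, and 176 and 271 CPM in D0. Poglut1, an O-glucosyltransferase of the receptors, was at 71.1 and 57.6 CPM in VC+, 55.7 and 61.5 CPM in VC-, and 53.7 and 119 CPM in D0. None of these 4 passed the limma test, whereas DESeq2 with a replicate term called Lfng lower in VC+ (adjusted p 0.000325) and VC- (0.00411) than in D0, and Adam10 lower in VC+ (0.0262).

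Of the further receptors and ligands, Notch4 had 8.90 and 5.71 CPM in VC+, 7.44 and 5.70 CPM in VC-, and 6.68 and 10.8 CPM in D0, with overlapping groups. Dlk1, a non-canonical ligand, had 3.35 and 6.23 CPM in VC+, 17.3 and 9.19 CPM in VC-, and 11.98 and 36.7 CPM in D0, lowest with vitamin C in both replicates. DESeq2 with a replicate term called it lower in VC+ than in D0 (adjusted p 0.0145). Mib2, a ubiquitin ligase for the ligands, stood above D0 in all 4 differentiated libraries, at 149 and 123 CPM in VC+, 133 and 134 CPM in VC-, and 98.2 and 101 CPM in D0. Nedd4, a ubiquitin ligase, stood below D0 in all 4, at 888 and 923 CPM in VC+, 814 and 1109 CPM in VC-, and 1178 and 1430 CPM in D0. None of these 4 passed the limma test either.

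**Figure D5:**
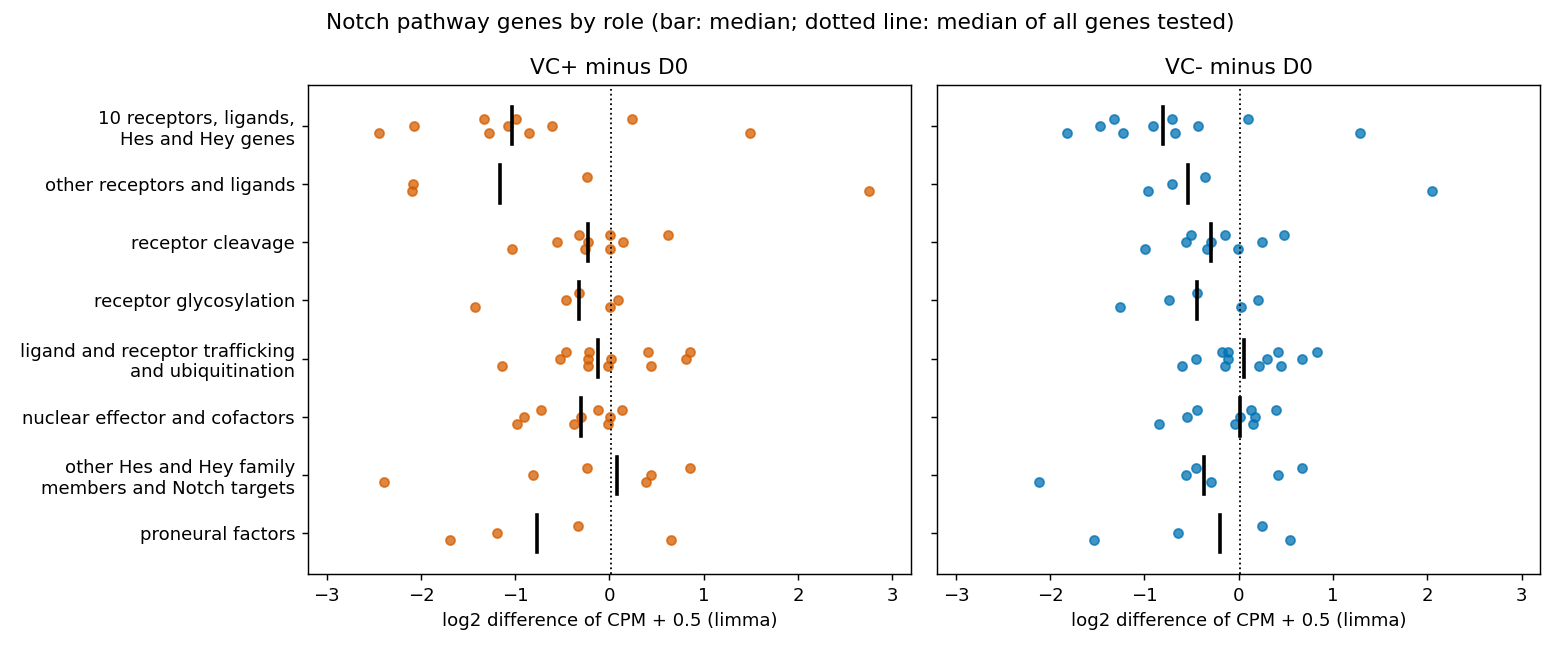
Log2 difference against D0 for the 10 genes and for the other tested pathway genes grouped by role, with VC+ on the left and VC- on the right; each point is 1 gene, the bar is the list's median and the dotted line the median of all genes. The 10 genes have medians of -1.03 and -0.80, and the nuclear effector and cofactor list has medians of -0.30 and 0.0099.

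The genes whose levels ran most like a member's over the 6 libraries were taken by Pearson correlation of log2(CPM + 0.5) among 9816 genes. The 6 libraries share replicate sets, and the best of many genes is high by selection, so these values are a description. Notch1 ran most like Adgrg1 (1.00), Plxna2 (0.996) and Smarcc1 (0.996). Adgrg1, an adhesion receptor of neural progenitors, had 965 and 244 CPM in VC+, 793 and 255 CPM in VC-, and 1301 and 1157 CPM in D0. Dll1 ran most like Pde4d (0.995), Cdk4 (0.994) and Agps (0.993). Hes5 ran most like Ns5atp9 (0.994), Brinp2 (0.993) and Gtf2h3 (0.993), and Hes1 most like Tpcn1 (0.996), Ubr4 (0.995) and Fkbp11 (0.993). Among the members, over the same 6 libraries, Dll1 and Hes5 correlated at 0.99, Notch1 and Dll3 at 0.98, Jag1 and Hes1 at 0.94, and Hes1 and Hes5 at -0.57.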

How the data were processed

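RNA-seq of 6 rat libraries, 2 per group, was used; the other 18 of the series' 24 samples were not analysed here. The RNA kit was TruSeq, per the labels' protocols. The authors deposited 1 CPM value per gene and library. Tools named without roles in the submitters' processing notes are deepTools 2.4.2, HOMER 4.9.1, Bowtie2 2.1.0, STAR 2.5.1, CASAVA 1.7 and edgeR 3.12.1, with the rn5 build. The read counter, its use of strand, the annotation and the gene filter are not given in the sources used here.

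Every CPM value (100%) was a whole multiple of its library's smallest step (relative tolerance 1e-06), and dividing by that step gave whole reads. Summed over genes they made up between 60.2% and 67.7% of each library total behind the CPM. A value of 0 allows up to 3 reads, which is 0.140 CPM in the deepest library and 0.378 CPM in the shallowest. That limit and the exact 95% binomial (Clopper-Pearson) intervals on ratios cover counting error only.

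Groups were compared in limma 3.58.1 with its trend option (R 4.3.3), two-sided, on log2(CPM + 0.5), with the 3 groups fitted together and 3 residual degrees of freedom. It covered the 11823 genes reaching 1 CPM in 2 or more libraries, and calls were made at a Benjamini-Hochberg value under 0.05 across them. The scale understates the change of low genes. An exact permutation test of 2 libraries against 2 cannot go below p 0.333 and was not used. VC+ and VC- libraries of 1 number share a day label, and their deviations from the group means correlated at 0.914 across genes. The main limma fit left them unpaired, while the fits with a replicate block and the CPM ratios paired them. Alternatives were pseudocounts of 0.1 and 2, other filters and scalings, no trend, a replicate block, fits of 2 groups at a time, counts tested with edgeR 4.0.16 or DESeq2 1.42.0, and each library left out. The code was tested on simulated data. The members and lists were chosen with earlier results of these data known. Named beside the 10 members were the 2 genes of highest mean CPM in each pathway list, Rbpj, Nrarp and Lfng, and the 3 genes most like each of Notch1, Dll1, Hes1 and Hes5 among those with a mean of at least 5 CPM. Some genes this rule takes in are not reported here.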

Additional observations from a re-analysis of the deposited data

How the results depend on the processing

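For VC+ against VC-, limma and edgeR called 0 genes under the alternatives run, and DESeq2 called 6, or 32 with the replicate block; 0 of 10 members were called under any of them. With 1 library left out this comparison takes in the replicate gap, and all 10 members changed sign in some such fit, with log2 ranges of Notch1 -0.60 to 0.70, Notch2 -0.32 to 0.14, Notch3 -0.80 to 1.28, Dll1 -2.06 to 0.85, Dll3 -2.07 to 0.82, Jag1 -1.91 to 0.71, Hes1 -1.01 to 0.66, Hes5 -1.31 to 0.74, Hey1 -0.23 to 0.65, Hey2 -1.55 to 1.83. Against D0 the libraries share only a number; deviations of same-numbered libraries correlated at 0.688 for VC+ and 0.730 for VC-. For VC+ against D0, DESeq2 called 133 genes and 1 member, and 768 genes and 4 members with the replicate block, while edgeR with the block called 11 genes and 0 members. For VC- against D0, DESeq2 called 63 genes and 1 member, and 455 genes and 4 members with the block. The 4 members were Notch2, Dll3 and Jag1, lower, and Hey1, higher, in both; the block changed no other member's call. Of the other pathway genes DESeq2 with the block called 7 lower and 1 higher for VC+ against D0 and 2 lower, Nrarp and Lfng, for VC- against D0. Of all genes it called 2.90% lower and 3.53% higher for VC+ against D0, and 2.29% lower for VC- against D0. The mean of VC+ and VC- against D0, chosen after seeing the data, called 0 genes in limma, with 604 at an unadjusted p under 0.05. Hey2 changed sign for VC+ against D0 with edgeR (-0.13) and DESeq2 (-0.11), and for VC- against D0 with a pseudocount of 2 (-0.15), quantile normalization (-0.066), edgeR (-0.71, and -0.12 with the block) and DESeq2 (-0.71); with DESeq2 and the block it was 0.21 for VC+ and 0.14 for VC-. With 1 library left out, signs changed for VC+ against D0 in Hey2 (-1.84 to 2.33), Hes1 (-1.24 to 0.034) and Dll1 (-2.67 to 0.11), and for VC- against D0 in Hey2 (-1.98 to 2.18), Hes1 (-1.27 to 0.41), Dll1 (-2.12 to 0.78) and Hes5 (-1.73 to 0.32). The replicate term, chosen after seeing the data, called 2971 genes and 6 members, and without 1 library 0 to 5049 genes and 0 to 9 members; Notch2 ran over -0.078 to 0.19. The cause of these changes was not tested, beyond the fewer libraries in each such fit. Depth limits Hey2 in replicate 1.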
